A study of Homo sapiens with 8 samples.

Results

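In all, 10 tubulin genes were followed in MP38, a BAP1-mutant uveal melanoma (UM) cell line, by bulk RNA sequencing. They are 7 β-tubulin genes (TUBB, TUBB2A, TUBB2B, TUBB3, TUBB4A, TUBB4B and TUBB6) and 3 α-tubulin genes (TUBA1A, TUBA1B and TUBA4A), chosen by name from the 35238 gene symbols of the count table. All 10 passed the filter on low counts, which 15085 genes passed in all. Over 24 h the cells received mivebresib at 1200 nM, or romidepsin or quisinostat at 40 nM each, all dissolved in 0.1% DMSO, which the control cells received alone. Mivebresib inhibits BET proteins, which bind acetylated histones through bromodomains, whereas romidepsin and quisinostat are inhibitors of histone deacetylases (HDAC). Each of the 4 groups held 2 libraries from separate wells of this single cell line, so the p-values measure the spread between wells and not between lines or patients.

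Microtubules are hollow polymers of α- and β-tubulin dimers that carry cargo, shape cells and build the mitotic spindle. Vertebrates encode several isotypes of each subunit, which differ most in the acidic tail at the end of the protein, where motors bind and where tubulin is modified. TUBB is the broadly expressed β isotype of dividing cells, TUBB4B is widespread and found in cilia, TUBB2A and TUBB2B are abundant in the developing brain, TUBB4A is enriched in oligodendrocytes and brain, and TUBB6 is a divergent, broadly expressed isotype. TUBB3 is used as a marker of neurons. Among the α isotypes, TUBA1A dominates in young neurons, TUBA1B is the main isotype of dividing cells, and TUBA4A lacks the encoded final tyrosine of the others and is known from brain, muscle and platelets. Cells also hold tubulin mRNA in check: excess free tubulin triggers the decay of mRNA that is being translated into tubulin.

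How far short reads can tell the isotypes apart is visible at the ends of their coding sequences. The last 90 coding bases, from GENCODE release 29 on GRCh38, are shown on the gene's own strand for the β isotypes on which the results turn, because they encode the tail in which the isotypes differ. Capitals mark bases that lie in no 16-base word shared with the transcript of another of the 10 genes.
TUBB: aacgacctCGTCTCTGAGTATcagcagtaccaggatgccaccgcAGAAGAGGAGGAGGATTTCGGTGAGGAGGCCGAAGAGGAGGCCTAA
TUBB2A: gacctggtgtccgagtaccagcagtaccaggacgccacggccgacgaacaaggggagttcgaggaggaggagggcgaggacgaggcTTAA
TUBB2B: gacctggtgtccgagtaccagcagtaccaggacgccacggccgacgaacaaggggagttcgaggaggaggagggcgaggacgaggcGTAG
TUBB3: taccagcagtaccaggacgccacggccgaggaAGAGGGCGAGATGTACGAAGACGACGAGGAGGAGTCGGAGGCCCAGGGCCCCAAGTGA
TUBB4A: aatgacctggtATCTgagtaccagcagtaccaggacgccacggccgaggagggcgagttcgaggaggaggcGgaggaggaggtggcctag
TUBB4B: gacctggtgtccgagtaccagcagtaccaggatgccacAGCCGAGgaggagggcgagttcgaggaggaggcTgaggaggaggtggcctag
TUBB3 had 58 capital bases of 90 and TUBB had 59. TUBB2A and TUBB2B had 4 each, all at the 3′ end, and their whole coding sequences were 98.1% identical. Of all 150-base windows of the TUBB2A transcript, 49.4% occurred unchanged in TUBB2B, and 38.2% of those of TUBB2B occurred in TUBB2A. The reads of these genes could therefore be split between them or dropped by the counting, and their values are given with that limit. No 150-base window of TUBB4A, TUBB4B, TUBB6 or TUBA4A was shared with another gene. TUBB3 shared 88.7% of its windows with AC092143.1, an annotated readthrough transcript of MC1R and TUBB3 that was not among the counted symbols, and 2.22% with each of TUBB2A and TUBB2B.

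Among the α isotypes, TUBA1A and TUBA1B were 97.2% identical over their coding sequences. TUBA1B shared 12% of its 150-base windows with TUBA1C and 7.17% with TUBA1A. On GRCh38, TUBB3 lies at chr16:89921392-89938761 on the plus strand, TUBB4B at chr9:137241213-137243707 (plus), TUBB4A at chr19:6494319-6502848 (minus) and TUBA4A at chr2:219249711-219278170 (minus), and all the printed ends lie in the last exon of a transcript of 4 exons. TUBB4B overlaps FAM166A, TUBB2B overlaps PSMG4, TUBB6 overlaps AFG3L2, TUBA1A overlaps TUBA1C, and TUBA4A overlaps STK16 and TUBA4B, each on the opposite strand. The libraries kept strand, but whether the counting used it is not given in the sources used here.

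Total counts per library ran from 28483235 to 29359024. The control libraries differed from each other more than those of any drug group (chi-square per degree of freedom 58.1, against 9.52 to 9.79). The line carried melanocytic transcripts in every group, with 7 markers summing to 4193 to 5452 CPM (counts scaled to library size) in the control, 4739 to 5027 with romidepsin, 3563 to 4108 with quisinostat and 3698 to 3776 with mivebresib. Most of each sum was TYRP1, with group means of 2988 to 3676 CPM. Of the 6 markers that could be tested by edgeR, romidepsin lowered 1, quisinostat 3 and mivebresib 4 (15.8%, 25.1% and 24.1% of all tested genes fell). In the mivebresib libraries SOX10 had a log2 FC (log2 fold change against the control) of -1.93, MITF of -1.47 and MLANA of -1.33. The part of these falls in the tubulin results was not tested. DCT was scarce in every group. Its libraries held 4 and 1 counts in the control, 1 and 1 with romidepsin, 2 and 2 with quisinostat, and 0 and 5 with mivebresib. Fibroblast markers summed to at most 10.9 CPM and endothelial and blood markers to at most 1.02 CPM in any library, and CDH5, CD3E and HBB were at 3 counts or fewer throughout. CPM here are scaled by TMM, which sets the typical gene to no change. With library size alone all tested genes had a median log2 FC of 0.196 with quisinostat, and with upper-quartile factors 0.126, so the fold changes below are relative to the typical gene.

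In the DMSO control, TUBA1B and TUBB were the most abundant isotypes per kilobase of transcript, at 778 ± 87.7 and 613 ± 7.16 CPM per kb (SD, n = 2). TUBA1A stood at 135 ± 3.66, TUBB4B at 122 ± 1.98, TUBB2B at 111 ± 10.8 and TUBB2A at 102 ± 9.31 CPM per kb. TUBB2B and TUBB2A differed by less than the SD of TUBB2B. TUBB3 stood at 44.3 ± 1.64 and TUBB6 at 38.2 ± 2.6 CPM per kb. TUBA4A at 6.02 ± 0.411 and TUBB4A at 1.11 ± 0.0756 CPM per kb were the scarcest. With mivebresib the order changed in the middle: TUBB4B at 258 ± 24.3 and TUBB3 at 207 ± 15.3 CPM per kb followed TUBB and TUBA1B, ahead of TUBA1A at 186 ± 6.74.

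TUBB3 responded in a different direction to the BET inhibitor than to romidepsin. Its CPM were 80.5 and 76.3 in the control libraries, 45.9 and 47.6 with romidepsin, 96.7 and 85.1 with quisinostat, and 386 and 348 with mivebresib. These rest on 1336 to 10550 counts per library. The mivebresib libraries lay far above all the others, the romidepsin libraries lay below all the others, and the quisinostat libraries lay just above the control without overlap. Against the control, TUBB3 rose 4.68-fold with mivebresib (95% interval 4.0 to 5.46, log2 FC 2.23, SE 0.098, adjusted p = 2.31e-06 by the quasi-likelihood test of edgeR, adjusted by Benjamini-Hochberg over all tested genes). It fell with romidepsin (log2 FC -0.75, SE 0.096, adjusted p = 9.04e-04 by edgeR). That fall was not called by limma on the authors' quantile-normalized scores (adjusted p = 0.0641), where the rise with mivebresib was. With quisinostat the log2 FC of 0.21 (SE 0.095) did not pass the test (adjusted p = 0.0894 by edgeR), and the interval of the fold ran from 0.997 to 1.35. That call depended on the scaling: the log2 FC was 0.41 with library size alone (adjusted p = 0.00587) and 0.34 with upper-quartile factors (adjusted p = 0.013). Of all tested genes, 2.19% had a higher log2 FC than TUBB3 with mivebresib, 38.3% with quisinostat and 94.7% with romidepsin. In bulk RNA, more cells with a transcript and more transcript per cell cannot be told apart.

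The drugs also differed from each other in TUBB3. Mivebresib exceeded romidepsin by 2.97 on the log2 scale (SE 0.1, adjusted p = 1.09e-06) and quisinostat by 2.01 (SE 0.097, adjusted p = 1.73e-06), by the same edgeR test of the direct difference. The HDAC inhibitors, both given at 40 nM, differed by 0.96 (SE 0.096, adjusted p = 2.64e-04), with quisinostat higher. The dose of mivebresib was not matched to theirs.

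**Figure D1:**
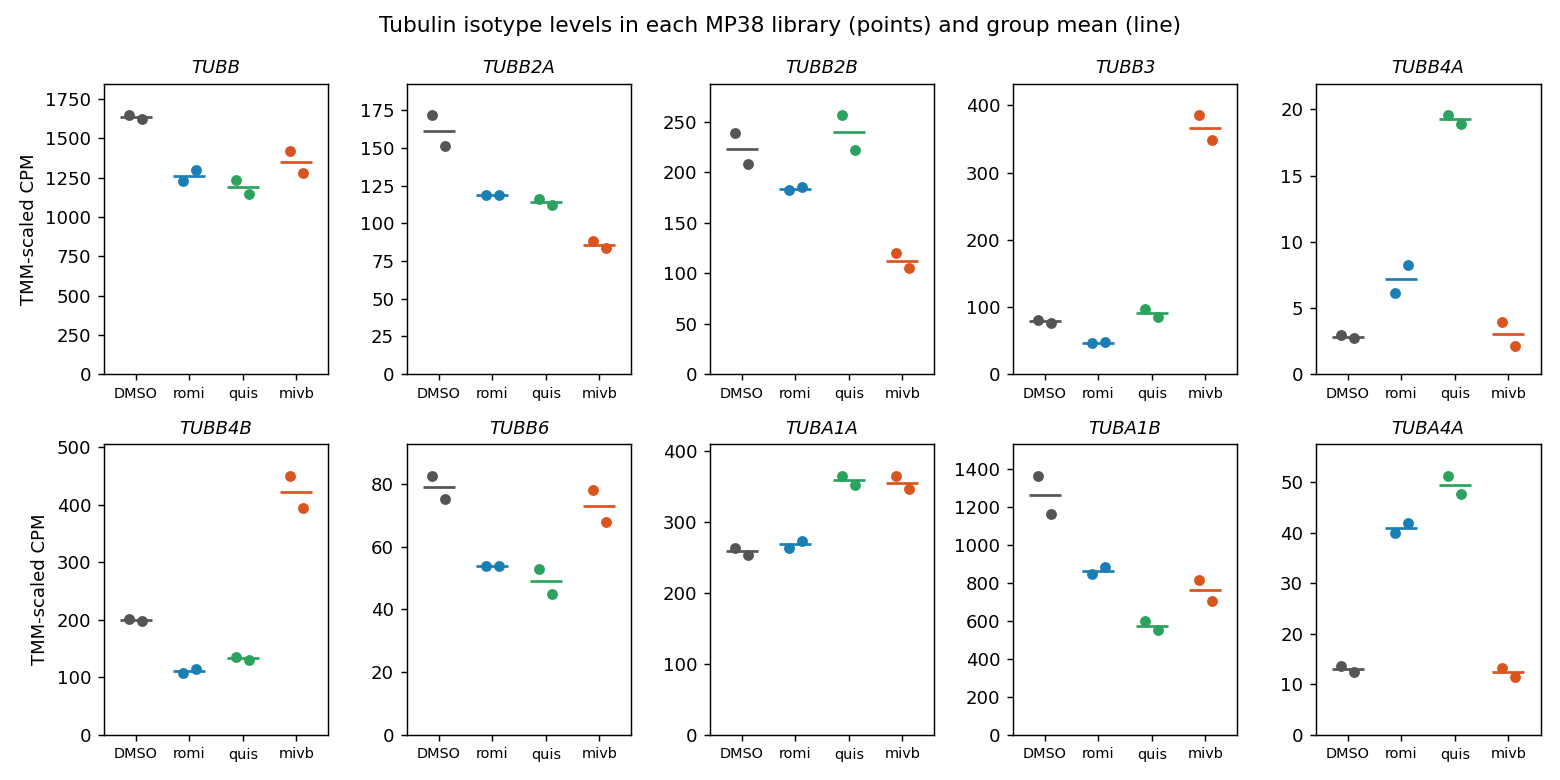
TMM-scaled CPM (vertical axes, linear from 0) of the 10 tubulin genes in the 8 MP38 libraries, grouped by treatment with DMSO, romidepsin (romi), quisinostat (quis) and mivebresib (mivb). Points are libraries and lines are group means of 2 libraries. TUBB3 reached 348 and 386 CPM with mivebresib, against 76.3 and 80.5 in the control.

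TUBB4B was the other β isotype that rose with mivebresib. Its libraries held 202 and 198 CPM in the control, 108 and 115 with romidepsin, 136 and 129.6 with quisinostat, and 451 and 395 with mivebresib. No 2 groups overlapped. The rise with mivebresib was 2.11-fold (95% interval 1.83 to 2.44, adjusted p = 4.15e-05 by edgeR). TUBB4B fell with romidepsin (log2 FC -0.84, SE 0.092, adjusted p = 4.17e-04) and with quisinostat (log2 FC -0.59, SE 0.091, adjusted p = 7.86e-04). By limma on the quantile-normalized scores none of these 3 TUBB4B changes passed (adjusted p = 0.244 with mivebresib, 0.123 with romidepsin and 0.693 with quisinostat). Tested directly, mivebresib exceeded romidepsin by 1.92 and quisinostat by 1.67 on the log2 scale (adjusted p = 3.55e-06 and 3.07e-06). The HDAC inhibitors differed by 0.25 in log2 FC, which did not pass the test (95% interval 0.04 to 0.46 without adjustment, adjusted p = 0.0622).

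TUBB4A and TUBA4A rose with both HDAC inhibitors and showed no change past the test with mivebresib. TUBA4A held 13.6 and 12.4 CPM in the control, 40.0 and 42.0 with romidepsin, 51.3 and 47.6 with quisinostat, and 13.3 and 11.5 with mivebresib. The HDAC inhibitor libraries all lay above the rest, and those of mivebresib overlapped the control. TUBA4A rose 3.15-fold with romidepsin (95% interval 2.68 to 3.7, adjusted p = 6.08e-05 by edgeR) and 3.8-fold with quisinostat (3.24 to 4.47, adjusted p = 3.38e-06), and its log2 FC with mivebresib was -0.071 (95% interval -0.31 to 0.17, adjusted p = 0.615). Quisinostat and romidepsin differed by 0.27 in log2 FC, not past the test (95% interval 0.06 to 0.49 without adjustment, adjusted p = 0.0537). Mivebresib lay 2.00 below quisinostat (log2 difference -2.0, adjusted p = 2.15e-06 by edgeR).

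TUBB4A was scarce, and its values rest on few counts, 84 and 74 in the control, 178 and 240 with romidepsin, 619 and 595 with quisinostat, and 107 and 59 with mivebresib. In CPM these were 2.98 and 2.7, 6.11 and 8.27, 19.6 and 18.9, and 3.91 and 2.12. The quisinostat libraries stood highest, those of romidepsin lay between them and the control, and those of mivebresib spanned the control. TUBB4A rose 6.78-fold with quisinostat (95% interval 4.6 to 9.98, adjusted p = 3.92e-05 by edgeR) and 2.53-fold with romidepsin (1.69 to 3.79, adjusted p = 0.00548). TUBB4A differed between the HDAC inhibitors, by 1.42 on the log2 scale (SE 0.22, adjusted p = 0.00177 by edgeR). With mivebresib its log2 FC was 0.085 (adjusted p = 0.828), and without mivebresib replicate 1 it was -0.42 (adjusted p = 0.238).

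The promoters of these 4 genes are shown because they moved in opposed groups, TUBB3 and TUBB4B with mivebresib and TUBA4A and TUBB4A with the HDAC inhibitors. Each run covers 250 bases before to 50 after the transcript start, from RefSeq on GRCh38.p14, on the gene's own strand, and all 10 genes had an entry. Capitals mark matches on either strand to 4 motifs, none of which overlap here. The GC box was searched as GGGCGG. The CCAAT box was searched by its own letters. For the TATA box the letters were TATAAA. The E-box searched was CACGTG. TUBB3 is at chr16:89923092-89923391, TUBB4B at chr9:137241037-137241336, TUBA4A at chr2:219253869-219254168 and TUBB4A at chr19:6502260-6502559.
TUBB3: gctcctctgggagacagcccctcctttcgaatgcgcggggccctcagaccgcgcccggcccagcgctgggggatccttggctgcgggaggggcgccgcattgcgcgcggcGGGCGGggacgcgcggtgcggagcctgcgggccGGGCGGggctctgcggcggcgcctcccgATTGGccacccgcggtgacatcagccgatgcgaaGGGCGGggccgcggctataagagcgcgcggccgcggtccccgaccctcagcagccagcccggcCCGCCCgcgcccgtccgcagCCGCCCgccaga
TUBB4B: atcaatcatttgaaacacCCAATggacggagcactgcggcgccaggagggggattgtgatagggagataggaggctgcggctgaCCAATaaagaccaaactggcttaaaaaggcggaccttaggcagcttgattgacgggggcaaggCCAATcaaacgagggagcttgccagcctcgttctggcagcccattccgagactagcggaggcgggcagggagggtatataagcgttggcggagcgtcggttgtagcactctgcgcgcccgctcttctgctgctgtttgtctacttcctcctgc
TUBA4A: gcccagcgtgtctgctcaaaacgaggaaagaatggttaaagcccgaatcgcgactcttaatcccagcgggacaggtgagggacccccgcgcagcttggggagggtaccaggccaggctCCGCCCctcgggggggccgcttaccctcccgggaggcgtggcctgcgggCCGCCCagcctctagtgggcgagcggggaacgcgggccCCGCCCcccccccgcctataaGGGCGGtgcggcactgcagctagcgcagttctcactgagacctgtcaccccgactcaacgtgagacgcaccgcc
TUBB4A: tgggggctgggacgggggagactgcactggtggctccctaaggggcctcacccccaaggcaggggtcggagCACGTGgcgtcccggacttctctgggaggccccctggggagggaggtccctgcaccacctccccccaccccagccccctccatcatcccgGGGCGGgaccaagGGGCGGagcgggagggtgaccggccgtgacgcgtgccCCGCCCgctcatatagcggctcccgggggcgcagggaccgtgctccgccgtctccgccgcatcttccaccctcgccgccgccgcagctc
The TUBB3 window held 5 GC boxes and 1 CCAAT box, and TUBB4B held 3 CCAAT boxes and 0 GC boxes. TUBA4A held 4 GC boxes, and TUBB4A held 3 GC boxes and 1 E-box. None of the 4 windows held the exact letters TATAAA, and other spellings of a TATA box were not searched. Among 35116 RefSeq promoters of the same length, 45.0% held a GC box, 34.6% a CCAAT box, 11.5% a TATA box and 7.26% an E-box. TUBB3 and TUBB4A each had a second annotated start, whose window is not printed. That of TUBB3 held 0 GC boxes and 0 CCAAT boxes, and that of TUBB4A held 1 GC box, 2 CCAAT boxes and 0 E-boxes. These matches are letters in a window and no binding was measured.

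The abundant β isotypes mostly fell. TUBB, the main β isotype of the line, held 1651 and 1624 CPM in the control, 1228 and 1298 with romidepsin, 1233 and 1146 with quisinostat, and 1418 and 1278 with mivebresib. All drug libraries lay below the control libraries. The log2 FC was -0.37 with romidepsin (SE 0.1, adjusted p = 0.0228 by edgeR), -0.46 with quisinostat (adjusted p = 0.00468) and -0.28 with mivebresib (adjusted p = 0.0471). The calls with romidepsin and mivebresib were near the threshold and were lost under several alternatives, with adjusted p up to 0.173 for romidepsin without its replicate 1 and up to 0.249 for mivebresib without its replicate 2. In the quantile-normalized scores TUBB was higher than in the control with those 2 drugs and lower with quisinostat, and none passed by limma (adjusted p = 0.906, 0.979 and 0.916 with romidepsin, mivebresib and quisinostat). The direct differences between drugs in TUBB had adjusted p of 0.538 (quisinostat and romidepsin), 0.465 (mivebresib and romidepsin) and 0.152 (mivebresib and quisinostat).

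TUBB6 held 82.7 and 75.1 CPM in the control and fell with romidepsin to 54.0 and 53.7 (log2 FC -0.55, adjusted p = 0.00603 by edgeR) and with quisinostat to 53.0 and 45.0 (log2 FC -0.69, adjusted p = 8.76e-04). With mivebresib it held 78.2 and 67.9, overlapping the control (log2 FC -0.11, 95% interval -0.36 to 0.13, adjusted p = 0.421). The direct test placed mivebresib above both romidepsin, by 0.44, and quisinostat, by 0.57, on the log2 scale (adjusted p = 0.00953 and 0.00195).

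TUBB2A and TUBB2B, the near-identical pair, both fell most with mivebresib. TUBB2A went from 172 and 151 CPM in the control to 88.3 and 83.4 (log2 FC -0.92, SE 0.087, adjusted p = 7.45e-05 by edgeR). TUBB2B went from 239 and 208 CPM to 120.1 and 105 (log2 FC -0.99, SE 0.11, adjusted p = 1.9e-04). The mivebresib libraries lay below the control for both genes. Summed in TMM-scaled CPM, so that reads split between them count once, they stood at 51.5% of the control with mivebresib. The sum was 78.4% with romidepsin and 91.9% with quisinostat. The HDAC inhibitors moved them less alike. TUBB2A fell with romidepsin, to 119 and 119 CPM (log2 FC -0.45, adjusted p = 0.0058 by edgeR, and 0.0539 without romidepsin replicate 1), and with quisinostat, to 116 and 112 (log2 FC -0.50, adjusted p = 0.00145). TUBB2B held 182 and 185 CPM with romidepsin (log2 FC -0.28, adjusted p = 0.0843) and 257 and 222 with quisinostat (log2 FC 0.1, adjusted p = 0.467), and neither passed the test. Without control replicate 2 the first was -0.38 with an adjusted p of 0.0142, and the second was -0.0022.

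The α isotypes shifted from TUBA1B towards TUBA1A. TUBA1B held 1366 and 1164 CPM in the control, 845 and 884 with romidepsin, 600.1 and 551 with quisinostat, and 818 and 706 with mivebresib. Every drug library lay below the control. Its log2 FC was -0.55 with romidepsin (SE 0.12, adjusted p = 0.00902 by edgeR), -1.14 with quisinostat (adjusted p = 9.63e-05) and -0.73 with mivebresib (adjusted p = 0.00123), and quisinostat lay below romidepsin by a log2 difference of -0.59 (adjusted p = 0.00584). The romidepsin call was lost without either of its libraries, with adjusted p of 0.0829 and 0.0528. By limma on the quantile-normalized scores TUBA1B passed with none of the drugs (adjusted p = 0.773, 0.267 and 0.936), and with romidepsin it was higher there than in the control.

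TUBA1A held 264 and 254 CPM in the control, 264 and 274 with romidepsin, 366 and 352 with quisinostat, and 365 and 347 with mivebresib. Its log2 FC was 0.47 with quisinostat and 0.46 with mivebresib (SE 0.081 for each, adjusted p = 0.00142 and 0.00194 by edgeR), and 0.055 with romidepsin (95% interval -0.13 to 0.24, adjusted p = 0.631). By limma on the quantile-normalized scores the rises of TUBA1A did not pass (adjusted p = 0.334 with quisinostat and 0.195 with mivebresib). Quisinostat and mivebresib differed by a log2 difference of -0.012 (95% interval -0.2 to 0.17). The count ratio of TUBA1A to TUBA1B was 0.193 and 0.218 in the control libraries, 0.312 and 0.31 with romidepsin, 0.609 and 0.638 with quisinostat, and 0.446 and 0.491 with mivebresib, and no 2 groups overlapped. Their sequences are alike enough that part of the reads could be assigned to either gene or to none.

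**Figure D2:**
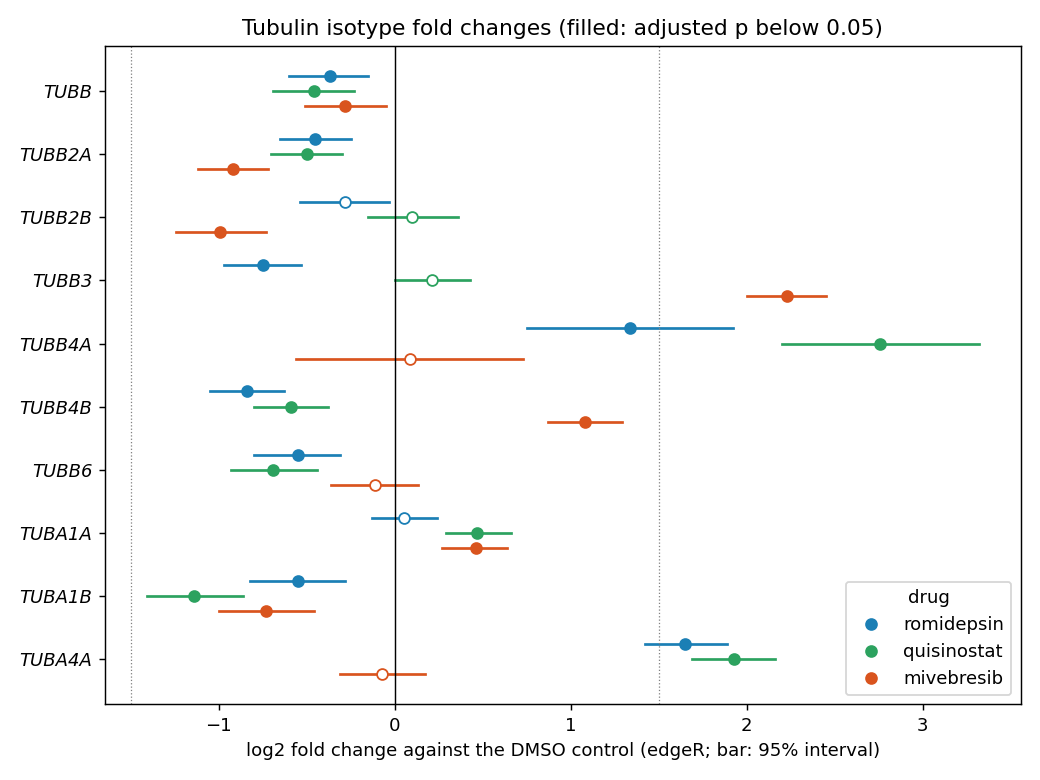
Log2 fold change against the DMSO control (horizontal axis) for the 10 tubulin genes (rows) and 3 drugs (colours), with 95% intervals from the edgeR fit; filled points passed an adjusted p of 0.05 and dotted lines mark a log2 FC of 1.5 in either direction. TUBB3 with mivebresib (2.23), TUBB4A with quisinostat (2.76) and TUBA4A with romidepsin (1.65) and quisinostat (1.93) lay beyond the dotted line, and the lowest point was TUBA1B with quisinostat (-1.14).

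Counted over the 10 genes at an adjusted p below 0.05, romidepsin raised 2 and lowered 6, where 15.2% of all 15085 tested genes rose and 15.8% fell. Without romidepsin replicate 1, 3 passed as lower. Quisinostat raised 3 and lowered 5, where 28% of all tested genes rose and 25.1% fell. With library size alone in place of TMM, quisinostat raised 5. Mivebresib raised 3 and lowered 4, where 22.2% rose and 24.1% fell. Limma on the quantile-normalized scores called 0 lower with romidepsin and 0 with quisinostat, where 2 and 0 were lower at an unadjusted p below 0.05, and 1 higher and 2 lower with mivebresib. The calls it shared with edgeR were TUBA4A and TUBB4A with both HDAC inhibitors, and TUBB3, TUBB2A and TUBB2B with mivebresib. The median log2 FC of the 10 was -0.41, -0.18 and -0.091 with romidepsin, quisinostat and mivebresib, beside -0.012, -0.0036 and 0.0067 over all tested genes. Past a log2 FC of 1.5 as well, TUBA4A rose with romidepsin (3.77% of all genes did), TUBA4A and TUBB4A with quisinostat (11.2%), and TUBB3 with mivebresib (3.96%). In the direct tests between drugs, quisinostat exceeded romidepsin in 4 isotypes and lay below it in 1 (21% and 14.6% of all tested genes). Mivebresib exceeded romidepsin in 4 and lay below it in 4 (23.7% and 25.2%), and exceeded quisinostat in 4 and lay below it in 4 (26.2% and 31.5%). The 3 comparisons with the control share its libraries.

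As shares of the counts of the 7 β isotypes, the mixture of the line changed most with mivebresib. TUBB3 made up 3.31% and 3.27% of β-tubulin counts in the control libraries, 2.63% and 2.61% with romidepsin, 5.06% and 4.83% with quisinostat, and 15.2% and 15.3% with mivebresib. The 95% Wilson intervals, which cover counting error only, ran from 4.89% to 5.24% for quisinostat replicate 1 and from 14.9% to 15.4% for mivebresib replicate 1. No 2 groups overlapped. With 2 libraries against 2, an exact permutation test cannot go below p = 0.333, so shares and sums are given without a test. Divided by transcript length, the mean TUBB3 share was 4.3% in the control, 3.47% with romidepsin, 6.42% with quisinostat and 18.6% with mivebresib.

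TUBB4B gained alongside, from 8.4% ± 0.1 of β-tubulin counts in the control (SD, n = 2) to 17.5% ± 0.28 with mivebresib. TUBB gave up 12.8 percentage points, from 68.7% ± 1.1 to 55.9% ± 0.25. TUBB2A went from 6.79% ± 0.43 to 3.56% ± 0.13 and TUBB2B from 9.36% ± 0.65 to 4.67% ± 0.066. TUBB6 took 3.31% ± 0.13 in the control and 3.02% ± 0.066 with mivebresib. Counted against TUBB, TUBB3 stood at 0.0487 and 0.047 in the control libraries and at 0.272 in both mivebresib libraries. The sum of the 7 genes hardly moved with mivebresib, at 2412 ± 189 CPM against 2383 ± 67.6 in the control, or 101% of it.

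The HDAC inhibitors left the β mixture closer to the control while its sum was lower. The 7 β genes summed to 1784 ± 59.9 CPM with romidepsin, 74.9% of the control, and to 1835 ± 108 CPM with quisinostat, 77.0% of it. These percentages depend on the TMM scaling. In unscaled counts the 7 genes held 68611 and 63925 in the control, 50723 and 53044 with romidepsin, and 60380 and 55245 with quisinostat. TUBB kept 70.8% ± 0.42 and 64.8% ± 0.48 of the counts. TUBB2B took 10.3% ± 0.2 with romidepsin and 13.0% ± 0.6 with quisinostat. TUBB4A, despite its fold change, reached 0.402% ± 0.072 and 1.05% ± 0.037, from 0.119% ± 0.0047 in the control.

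Among the 3 α isotypes, TUBA1A made up 16.9% ± 1.2 of the control counts, and this share was 22.9% ± 0.086 after romidepsin, 36.5% ± 0.74 after quisinostat and 31.5% ± 1.5 after mivebresib. TUBA1B went from 82.3% ± 1.2 to 73.6% ± 0.075, 58.5% ± 0.72 and 67.4% ± 1.4 in the same order. TUBA4A reached 3.49% ± 0.012 and 5.03% ± 0.026 with romidepsin and quisinostat, from 0.848% ± 0.025, and 1.1% ± 0.02 with mivebresib. The 3 genes summed to 76.4%, 64.0% and 73.6% of the control with romidepsin, quisinostat and mivebresib, in TMM-scaled CPM. In unscaled counts they held 46385 and 39156 in the control. The drug libraries held 33428 and 34842 with romidepsin, 32128 and 29849 with quisinostat, and 32708 and 29593 with mivebresib. So the summed α counts were lower with all 3 drugs, and the summed β counts were lower with the HDAC inhibitors alone.

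**Figure D3:**
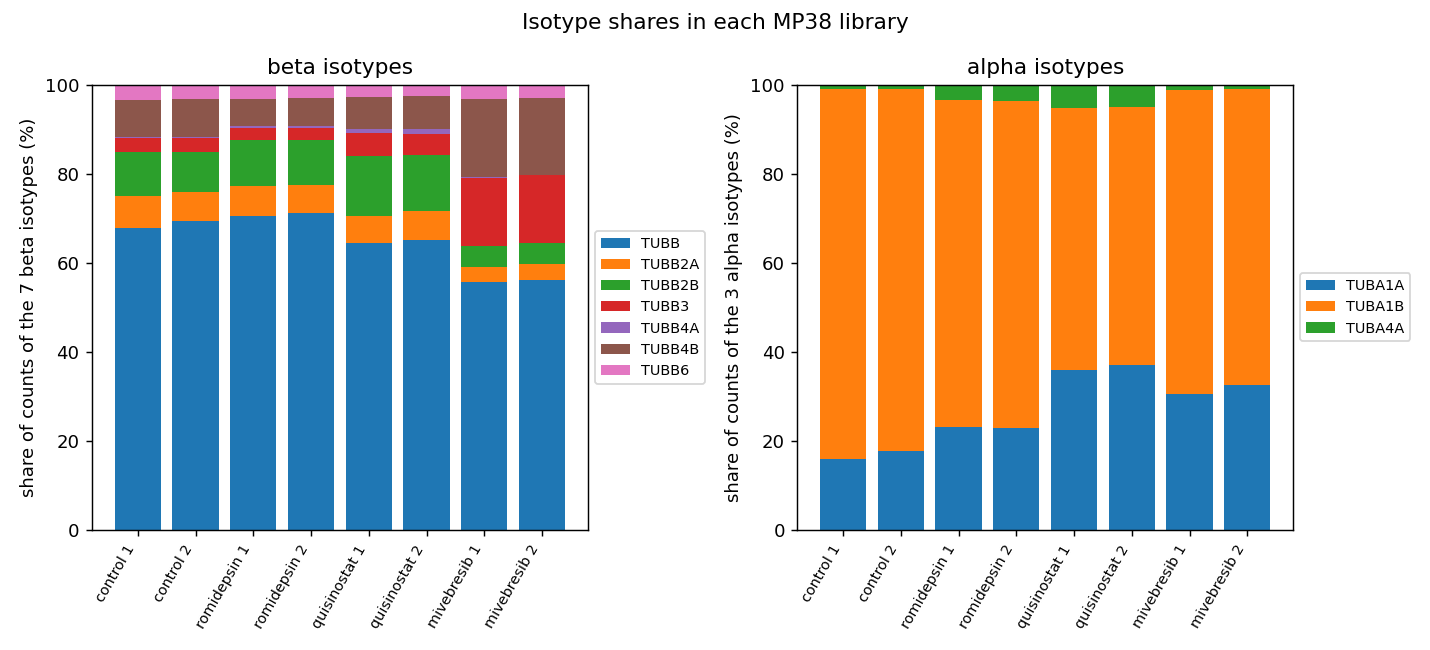
Share of counts (vertical axis, percent) of each of 7 β isotypes (left) and 3 α isotypes (right) in every MP38 library. The TUBB3 segment grew from 3.31% and 3.27% in the control libraries to 15.2% and 15.3% with mivebresib, and the TUBA1A segment was widest with quisinostat.

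The neighbours of TUBB3 on chromosome 16 moved in both directions. MC1R, the melanocortin receptor whose readthrough transcript runs into TUBB3, went the other way with mivebresib: 9.21 and 8.22 CPM in the control became 4.75 and 4.06 (log2 FC -0.98, adjusted p = 6.07e-04 by edgeR). It also fell with quisinostat (log2 FC -0.52, adjusted p = 0.011). SPIRE2, an actin nucleator, rose with mivebresib from 10.1 and 9.57 CPM to 24.2 and 22.3 (log2 FC 1.24, adjusted p = 2.57e-05). DEF8, on the other side of TUBB3, rose by a log2 FC of 0.50 with mivebresib (adjusted p = 0.0105). TCF25 fell after both HDAC inhibitors, by log2 FCs of -0.50 for romidepsin (adjusted p = 0.00426) and -1.01 for quisinostat (adjusted p = 4.74e-05). FANCA, a DNA repair gene, fell with quisinostat (log2 FC -0.76, adjusted p = 0.00122). Of these 5 neighbours, 2 rose and 1 fell with mivebresib, 3 fell with quisinostat and 1 fell with romidepsin. Over all tested genes 22.2% rose and 24.1% fell with mivebresib, 25.1% fell with quisinostat and 15.8% fell with romidepsin. The calls of MC1R with quisinostat, DEF8 with mivebresib and TCF25 with romidepsin were lost without 1 library of that drug, with adjusted p up to 0.0711, 0.0792 and 0.0511.

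The genes whose 3 log2 FCs lay nearest to those of TUBB3 by Euclidean distance, out of 9839 genes whose log2 CPM averaged 3 or more, were DCXR (distance 0.673), ISOC1 (0.683), FGFR3 (0.685), HIST1H2AG (0.841) and HIST2H2BE (0.856). DCXR had log2 FCs of -0.53, 0.29 and 1.59 with romidepsin, quisinostat and mivebresib. FGFR3, a fibroblast growth factor receptor, had -0.86, 0.41 and 1.58. None of the 9 other isotypes was among these 5. The distance is a description over 3 contrasts that share 1 control group.

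Neuronal markers other than TUBB3 were highest with quisinostat. The 12 markers summed to 50 to 52.1 CPM in the control libraries, 131 to 134 with romidepsin, 177 to 178 with quisinostat and 134 to 149.9 with mivebresib. INA, a neuronal intermediate filament, made up most of each sum, with group means of 47.4, 123, 136 and 128 CPM in that order. The test called 6 of the 9 testable markers higher after romidepsin, 8 after quisinostat and 4 after mivebresib, where 15.2%, 28% and 22.2% of all tested genes were. ELAVL3, ELAVL4, GAP43 and DCX were at 3 counts or fewer in every control and mivebresib library. The TUBB3 level with quisinostat was 1.16-fold that of the control. The part of these markers in the TUBB3 result was not tested.

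The other genes of the microtubule system were read from 8 lists of 118 genes, 105 of which could be tested. With romidepsin 21 rose and 17 fell, with quisinostat 35 rose and 25 fell, and with mivebresib 32 rose and 21 fell. As shares of the 105, 20% rose and 16.2% fell with romidepsin, 33.3% and 23.8% with quisinostat, and 30.5% and 20% with mivebresib. These lay near the shares over all tested genes, which were 15.2% and 15.8%, 28% and 25.1%, and 22.2% and 24.1%. The romidepsin counts depended on single libraries: 13 rose without either romidepsin library, and 7 fell without romidepsin replicate 1, 8 without replicate 2, 11 without control replicate 1 and 28 without control replicate 2. With library size alone, 16 fell with quisinostat. The medians were -0.057, -0.0021 and 0.093 with the 3 drugs in that order, near those of all tested genes.

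The neuronal microtubule-associated proteins had more rises than falls with each drug. Of 18 tested, 8 rose and 2 fell with romidepsin, 12 rose and 1 fell with quisinostat, and 12 rose and 2 fell with mivebresib, with median log2 FCs of 0.65, 1.25 and 0.93. The rises were 44.4%, 66.7% and 66.7% of the list, beside 15.2%, 28% and 22.2% of all tested genes. Leaving out a romidepsin library made both romidepsin counts by edgeR smaller, that of rises and that of falls. MAP2, which spaces microtubules in dendrites, rose with mivebresib from 620 and 613 counts to 2943 and 3316 (log2 FC 2.35, adjusted p = 1.52e-06 by edgeR). Both HDAC inhibitors raised MAP2 as well (romidepsin log2 FC 0.9, adjusted p = 2.87e-04, and quisinostat log2 FC 2.05, adjusted p = 1.79e-06, by edgeR). MAPT, the axonal protein tau, rose by log2 FCs of 1.27, 2.63 and 1.19 with romidepsin, quisinostat and mivebresib. DPYSL5, a collapsin response mediator of growing axons, held 8 counts in each control library and 321 and 339 with quisinostat (log2 FC 5.17, adjusted p = 9.85e-07), and it also rose with romidepsin (log2 FC 3.44) and, less firmly, with mivebresib (1.36, adjusted p = 0.00521, and 0.0512 without mivebresib replicate 2). CAMSAP3, which caps microtubule minus ends, rose with all 3 drugs, by log2 FCs of 1.44, 1.36 and 2.02 in the order above. DCLK2, a doublecortin-like kinase, fell with mivebresib (log2 FC -0.73, adjusted p = 1.24e-04 by edgeR) and rose with quisinostat (0.64, adjusted p = 1.81e-04). It also fell with romidepsin (-0.26, adjusted p = 0.0319, and 0.172 without romidepsin replicate 2).

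Enzymes that modify tubulin changed in both directions. Of 20 tested, 5 rose and 4 fell with romidepsin, 10 rose and 3 fell with quisinostat, and 8 rose and 1 fell with mivebresib. The rises were 25%, 50% and 40% of the list with the 3 drugs, and the falls 20%, 15% and 5%, against the shares over all tested genes given above. Several of these counts depended on single libraries. Fewer fell with romidepsin without either romidepsin library, either quisinostat library or control replicate 1, and more fell without control replicate 2. Fewer rose with romidepsin whichever library was left out. With quisinostat, fewer fell without either of its libraries. TTLL7, which adds glutamates to β-tubulin tails, rose by log2 FCs of 1.99, 2.81 and 1.35 with the drugs in that order. VASH2, a carboxypeptidase that removes the final tyrosine of α-tubulin, was scarce, at 14 and 11 counts in the control, and rose to 155 and 129 with quisinostat (log2 FC 3.31, adjusted p = 2.47e-05 by edgeR). VASH2 rose by log2 FCs of 1.72 with mivebresib and 1.51 with romidepsin, the latter not past the test without romidepsin replicate 1 (adjusted p = 0.0532). AGTPBP1, which trims glutamates, rose by 0.58, 0.57 and 1.05 on the log2 scale with romidepsin, quisinostat and mivebresib. AGBL5, which removes the branching glutamate, fell with mivebresib (log2 FC -1.21, adjusted p = 1.33e-04 by edgeR) and rose with quisinostat (0.94, adjusted p = 2.95e-04).

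**Figure D4:**
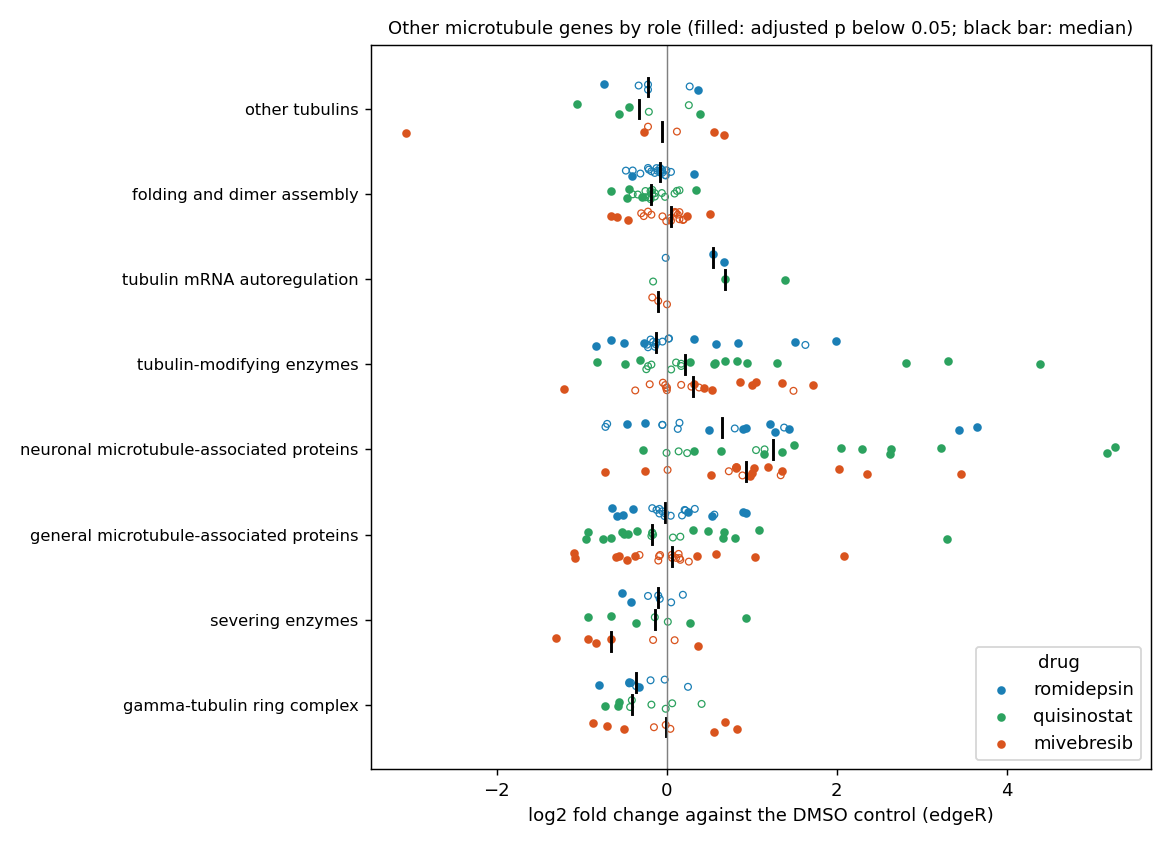
Log2 fold change against the DMSO control (horizontal axis) for the tested genes of 8 microtubule lists (rows) with romidepsin, quisinostat and mivebresib (colours); filled points passed an adjusted p of 0.05 and black bars are list medians. The medians of the neuronal microtubule-associated proteins were 0.65, 1.25 and 0.93, and those of the folding factors -0.078, -0.19 and 0.051.

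Among the tubulins outside the 10, 1 fell past every isotype described so far. TUBA8, a scarce α isotype, held 485 and 432 counts in the control and 61 and 48 with mivebresib (log2 FC -3.06, adjusted p = 3.12e-06 by edgeR). It fell less with quisinostat (log2 FC -0.56, adjusted p = 0.00465 by edgeR), and its log2 FC of -0.33 with romidepsin did not pass (adjusted p = 0.0707). TUBA1C, close in sequence to TUBA1B, fell with romidepsin (log2 FC -0.74) and quisinostat (-1.05), and its log2 FC with mivebresib was -0.27 (adjusted p = 0.0398, and 0.176 without mivebresib replicate 2). TUBA1A, TUBA1B and TUBA1C together stood at 70.6%, 58.0% and 75.9% of the control with romidepsin, quisinostat and mivebresib in summed CPM. Reads split among the 3 genes count once in this sum, but any that the counting dropped as shared are missing from it. Of the 12 other tubulins, 6 were counted highly enough to test. TUBE1, the ε-tubulin of centrioles, rose with mivebresib (log2 FC 0.67, adjusted p = 0.0018 by edgeR).

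The genes that set how much tubulin mRNA and protein a cell keeps were read next. TTC5, which recognises nascent tubulin chains and starts the decay of their mRNA, rose with romidepsin from 266 and 228 counts to 422 and 400 (log2 FC 0.67, adjusted p = 0.00459 by edgeR) and with quisinostat to 770 and 694 (log2 FC 1.39, adjusted p = 3.63e-05). Mivebresib gave 236 and 199 counts. SCAPER, which links TTC5 to the deadenylase, rose with romidepsin (log2 FC 0.54, adjusted p = 0.0455 by edgeR) and quisinostat (0.68, adjusted p = 0.0107). The romidepsin call was lost without romidepsin replicate 1 and the quisinostat call without quisinostat replicate 2. Of 21 chaperonin, prefoldin and cofactor genes that fold tubulin, 1 rose and 1 fell with romidepsin. Quisinostat raised 1 and lowered 4, and mivebresib raised 2 and lowered 3. Over all tested genes 15.2% rose and 15.8% fell with romidepsin, 28% and 25.1% with quisinostat, and 22.2% and 24.1% with mivebresib. With all libraries each share of this list was lower, at 4.76% and 4.76%, 4.76% and 19.0%, and 9.52% and 14.3%. Without control replicate 2, 5, 12 and 7 fell with romidepsin, quisinostat and mivebresib. CCT5, a chaperonin subunit, fell with romidepsin (log2 FC -0.41, adjusted p = 0.00988, and 0.102 without romidepsin replicate 1) and quisinostat (-0.66, adjusted p = 4.06e-04). TBCB, an α-tubulin cofactor, rose with mivebresib (0.51, adjusted p = 0.0146, and 0.109 without mivebresib replicate 1).

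Of the 21 general microtubule-associated proteins, 4 rose and 4 fell with romidepsin, 7 and 8 with quisinostat, and 4 and 6 with mivebresib. Over all tested genes 15.2% rose and 15.8% fell with romidepsin, 28% and 25.1% with quisinostat, and 22.2% and 24.1% with mivebresib. The shares of this list were 19.0% and 19.0%, 33.3% and 38.1%, and 19.0% and 28.6% in the same order. Without control replicate 2, 8 rose with romidepsin and 7 with mivebresib. PRC1, which bundles the central spindle, had log2 FCs of -0.64, -0.95 and -1.09 with romidepsin, quisinostat and mivebresib, and TPX2, which activates the spindle kinase Aurora A, had -0.59, -0.93 and -1.08, each past the test. MAPRE2, an end-binding protein, rose with all 3 drugs, by log2 FCs of 0.90, 0.80 and 1.04. Of the 7 severing enzymes, 2 (28.6%) fell with romidepsin. Quisinostat raised 2 (28.6%) and lowered 3 (42.9%). Mivebresib raised 1 (14.3%) and lowered 4 (57.1%), including FIGN (log2 FC -1.30, adjusted p = 1.24e-05 by edgeR). Of 9 γ-tubulin ring complex genes, which nucleate microtubules, 3 fell with romidepsin, 3 fell with quisinostat, and 3 rose and 3 fell with mivebresib. Each of these counts was 33.3% of the list, beside the shares over all tested genes given above. Leaving out single libraries moved the counts of falls in both directions. More fell with romidepsin and quisinostat without control replicate 2. Fewer fell with romidepsin without either of its libraries, and with mivebresib without its replicate 2. TUBGCP3 fell with romidepsin (log2 FC -0.80), quisinostat (-0.72) and mivebresib (-0.50).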

How the data were processed

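MP38 libraries (4 groups of 2) were mapped to treatment and replicate from the labels. The authors deposited 3 tables made with BioJupies: raw counts per gene symbol, log10 values, which equal log10(CPM + 1), and a quantile-normalized score whose scale is not given. The processing notes name hg38. The aligner, annotation and use of strand in counting are not given in the sources used here. The counts were used, and the deposited scores only for an alternative by adjusted p. Counts were fitted with edgeR 4.0.16 in R 4.3.3 (TMM, filterByExpr, quasi-likelihood test, 1 model of 8 libraries, Benjamini-Hochberg over 15085 genes, biological coefficient of variation 0.0938). Libraries held 28483235 to 29359024 counts, and precision rests on 2 libraries per group. Shares are percentages of the summed counts of 7 β or 3 α isotypes.

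The members and lists were chosen with earlier results of these data known. Named were all 10 isotypes, 5 neighbours of TUBB3, the 5 genes nearest to it, markers by list, and from each list, per drug, up to 3 genes with the largest log2 FC each way among those past an adjusted p of 0.05 whose log2 CPM averaged 1 or more, of which the text gives a part. Transcripts came from GENCODE 29 (GRCh38) and promoters from RefSeq. The coding ends of the α isotypes are not reported here. On simulated counts for the quisinostat comparison, 14764 genes were tested. There edgeR recovered 92.7% of genes changed by a log2 FC of 1 and 97% of those changed by 2, with 8 false calls. The simulated counts had the same spread setting in every gene and group, whereas the real control libraries differed more than those of the drugs. These rates therefore hold for the simulation only. Alternatives were DESeq2 1.42.0, limma 3.58.1 (voom, and on the deposited scores), upper-quartile factors or library size alone as the scaling, a filter on a mean CPM of 5 or none, fits of the 4 libraries of a comparison by themselves, a replicate block, other share denominators, and each library left out, after which a lone library is assumed to vary like the other groups. Counts per list without a control library were added after seeing the data. Replicate numbers did not pair the wells.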

Additional observations from a re-analysis of the deposited data

How the results depend on the processing

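TUBB3 kept its direction in every fit run for each drug. Its rise with mivebresib and fall with romidepsin passed the test in all fits of the counts, with adjusted p up to 1.82e-04 and 0.016. By limma on the quantile-normalized scores the rise passed and the fall did not (adjusted p = 0.0641). With quisinostat it passed with library size alone (0.41), upper-quartile factors (0.34) and a mean CPM of at least 5 (0.31). Leaving out single libraries gave TUBB3 log2 FCs of -0.78 to -0.68 with romidepsin, 0.13 to 0.29 with quisinostat and 2.14 to 2.3 with mivebresib.

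Counts of isotypes moved in these cases. By limma on the quantile-normalized scores 0 fell with romidepsin and 0 with quisinostat (2 and 0 lower at an unadjusted p below 0.05), and 1 rose and 2 fell with mivebresib. With only the 4 libraries of the comparison 3 fell with romidepsin. With library size alone 5 rose with quisinostat. Leaving out single libraries gave 3 to 7 falls with romidepsin. The other microtubule genes gave, in the same scores, 8 rises and 2 falls with romidepsin, 19 and 3 with quisinostat, and 18 and 6 with mivebresib. They gave 7 falls with romidepsin from its 4 libraries alone and 16 falls with quisinostat by library size alone. Leaving out single libraries, rises ran from 13 to 25 and falls from 7 to 28 with romidepsin, falls from 17 to 37 with quisinostat and falls from 14 to 28 with mivebresib. Counts of 5 or fewer within a list also moved by over 1.5 times in many of these fits. The causes were not tested. No fold change was taken from those scores, because their scale is not given.

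Isotypes without a clear change turned direction when a library was left out: TUBB2B with quisinostat (-0.0022 without control replicate 2 and 0.2 without control replicate 1), TUBB4A with mivebresib (-0.42 and 0.46 without mivebresib replicate 1 and 2), and TUBA4A with mivebresib (0.0008 without control replicate 1 and 0.029 without mivebresib replicate 2, against -0.18 without mivebresib replicate 1). No isotype turned direction with library size alone or upper-quartile factors. In the quantile-normalized scores TUBB with romidepsin and mivebresib, TUBA1B with romidepsin and TUBA4A with mivebresib were higher than the control instead of lower, none past the test by limma. The TUBB3 share by transcript length was 4.3%, 3.47%, 6.42% and 18.6% in the control, romidepsin, quisinostat and mivebresib groups.

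Deviations of same-numbered libraries correlated between -0.162 and 0.158 over the pairs of groups, with both signs, so the numbers do not pair the wells. With the replicate block TUBB3 had log2 FCs of -0.74, 0.21 and 2.22 with romidepsin, quisinostat and mivebresib, each on the side of the threshold given in the report, and TUBB with mivebresib had an adjusted p of 0.0585. With 2 libraries per group, small fold changes and the scarce TUBB4A are the least certain.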
